A study of Homo sapiens with 18 samples.

Results

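The 10 genes described here encode acute-phase and related secreted defence proteins. They are CHI3L1, HP, SAA1, SAA2, LCN2, C3, CFB, CP, SERPINA3 and SERPINA1, found by symbol among the 55765 symbols of each of 2 deposited count tables. The members were chosen by values measured in these libraries, and the record of that choice does not say which. Every comparison below is therefore treated as one that may have been used. Adjusted p-values show where a gene stood in a fit across all genes, and they are not independent evidence about the list. HP had 2 to 20 counts in the libraries of the first table, and SERPINA3 had 0 to 10 counts in all libraries of both tables.

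RNA was sequenced from OVCAR3, an established human cell line of high-grade serous ovarian carcinoma, in 18 libraries. The study asked how such cells respond when IgA, an antibody class that epithelia carry across their cells, binds to and passes through them. In the first table, the non-specific series, cells received IgA or IgG without a chosen target at 0.5 µg/ml, or no antibody. In the second table, the antigen-specific series, cells received IgA against the neurotrophin BDNF (BDNF IgA) or IgA against the tetraspanin TSPAN7 (TSPAN7 IgA) at 0.5 µg/ml, or no antibody. Each of the 6 groups had 3 libraries. All cells, untreated ones included, were kept in RPMI medium with a low share of fetal bovine serum, and none carried an engineered allele according to the labels. Treatment lasted 24 h in the labels, whereas another description of these experiments gives a shorter time. Only 1 cell line was used. The study calls the replicates of the non-specific series experiments and describes its replicates in general as biological or independent, while the labels name no separate cultures, so p-values measure the spread between these libraries. Comparisons were made within a table only.

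Libraries held 27920733 to 42371474 counts in the non-specific series and 39254350 to 47381836 in the antigen-specific series. IgA replicate 3 of the non-specific series stood apart, with 19.1% of its counts from the mitochondrial genome against 5.75% to 10.2% in the other 17 libraries. The common dispersion, which measures the spread between replicates, was 0.0307 in the non-specific series and 0.00303 in the antigen-specific series. All 10 markers of serous carcinoma had at least 50 counts in every library. Of the 5 hepatocyte markers none reached 50 counts in every library of any group, and TTR and APOB had at most 3 counts in every library. None of 7 leukocyte and none of 4 neutrophil markers reached 50 counts in every library of any group. One of 4 fibroblast markers did so, and the summed fibroblast markers ranged from 786.4 to 1341 normalised counts with IgA, from 641.2 to 701.1 with IgG and from 646.8 to 866.1 in untreated cells of that series. In the antigen-specific series the sum was 684.2 to 840.2 with BDNF IgA, 577.6 to 694 with TSPAN7 IgA and 553.1 to 711.1 in untreated cells, and its part in the results was not tested. CDH5, the endothelial marker counted, was at 14.22 to 39.97 normalised counts with IgA, at 4.552 to 12.13 with IgG and at 1.038 to 5.045 in untreated cells of the non-specific series. Its IgA libraries were above all 6 others, it was at most 2.709 in the antigen-specific series, and its part in the results was not tested.

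Acute-phase proteins are plasma proteins whose production changes during infection, injury or inflammation, mostly in the liver. IL-6 acts through the kinase JAK and the transcription factor STAT3, IL-1 and TNF act through NF-kB, and C/EBP factors take part in both routes. Epithelial and carcinoma cells can also make several of these proteins, among them lipocalin 2, serum amyloid A and components of complement, where they bind iron, bind lipids or mark surfaces for clearance.

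Promoter sequence is shown for CHI3L1, CFB and LCN2, because CHI3L1 and CFB had the largest increases with BDNF IgA and because CFB and LCN2 hold matches to the NF-kB motif while CHI3L1 does not. RefSeq promoter windows on GRCh38.p14 matched 5 of the 10 members, namely CHI3L1, LCN2, CFB, SERPINA1 and SERPINA3. Each line gives the 250 bases before the transcription start, 5′ to 3′ on the strand of the gene, with matches to the NF-kB motif on either strand (GGGA, any 4 bases, then CC) in capitals.
CHI3L1 (chr1:203186705-203186954, minus strand): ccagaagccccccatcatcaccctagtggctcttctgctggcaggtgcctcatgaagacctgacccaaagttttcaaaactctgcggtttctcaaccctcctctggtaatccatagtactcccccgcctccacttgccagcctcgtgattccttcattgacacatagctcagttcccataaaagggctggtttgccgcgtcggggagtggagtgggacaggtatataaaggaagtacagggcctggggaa
CFB (chr6:31945845-31946094, plus strand): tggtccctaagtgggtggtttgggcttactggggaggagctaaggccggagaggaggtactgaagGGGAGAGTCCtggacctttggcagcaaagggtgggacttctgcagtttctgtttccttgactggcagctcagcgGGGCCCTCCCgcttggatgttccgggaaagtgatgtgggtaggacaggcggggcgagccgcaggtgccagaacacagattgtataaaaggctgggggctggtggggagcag
LCN2 (chr9:128149203-128149452, plus strand): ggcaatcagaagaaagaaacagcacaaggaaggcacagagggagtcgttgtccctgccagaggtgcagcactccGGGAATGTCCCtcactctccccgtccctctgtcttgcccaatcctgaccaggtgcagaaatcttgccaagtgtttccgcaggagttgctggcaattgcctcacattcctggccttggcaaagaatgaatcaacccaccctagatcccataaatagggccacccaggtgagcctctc
The CFB matches began at -185 and -111 relative to the start, and the LCN2 capitals are 2 overlapping matches that began at -176 and -175. Of the members matched but not shown, SERPINA3 held an NF-kB match at -67 and SERPINA1 held none. Within 300-base windows that also take in the 50 bases after the start, 25.6% of 35116 RefSeq promoters held this motif on either strand. The C/EBP motif TTNNGNAA was in 36.8% of them, and it matched CHI3L1 at -179 and -163, LCN2 at -143, SERPINA1 at -202 and SERPINA3 at -63. The STAT motif TTCNNNGAA was in 7.66%, and it matched CFB at -92. These are matches of letters only, and no measurement here bears on binding at them.

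Most members were higher with BDNF IgA than with TSPAN7 IgA. With BDNF IgA, 7 of the 9 members tested were called higher than in untreated cells and 0 lower, where 4.49% of all 18732 genes tested were called higher and 3.18% lower (edgeR quasi-likelihood test, two-sided). A gene is said to be called where its FDR, the p-value of that test adjusted by Benjamini-Hochberg over all genes tested, was under 0.05. With TSPAN7 IgA, 1 of 9 was higher and 2 were lower, where 4.46% of genes were called higher and 4.08% lower. Set directly against BDNF IgA, 8 of 9 were lower with TSPAN7 IgA and 0 higher, where 4.5% of genes were called lower and 3.42% higher. The 3 comparisons share their libraries in pairs and are not separate evidence. The median log2 fold change of the 9 members was 0.67 with BDNF IgA and -0.04 with TSPAN7 IgA against untreated cells, and -0.59 between the antibodies, beside medians over all genes of 0.0022, -0.00072 and -0.0017. SERPINA3 did not pass the filter on low counts, so the fits reported here leave it out in both tables. Alternatives that kept it are given with its counts below.

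**Figure D1:**
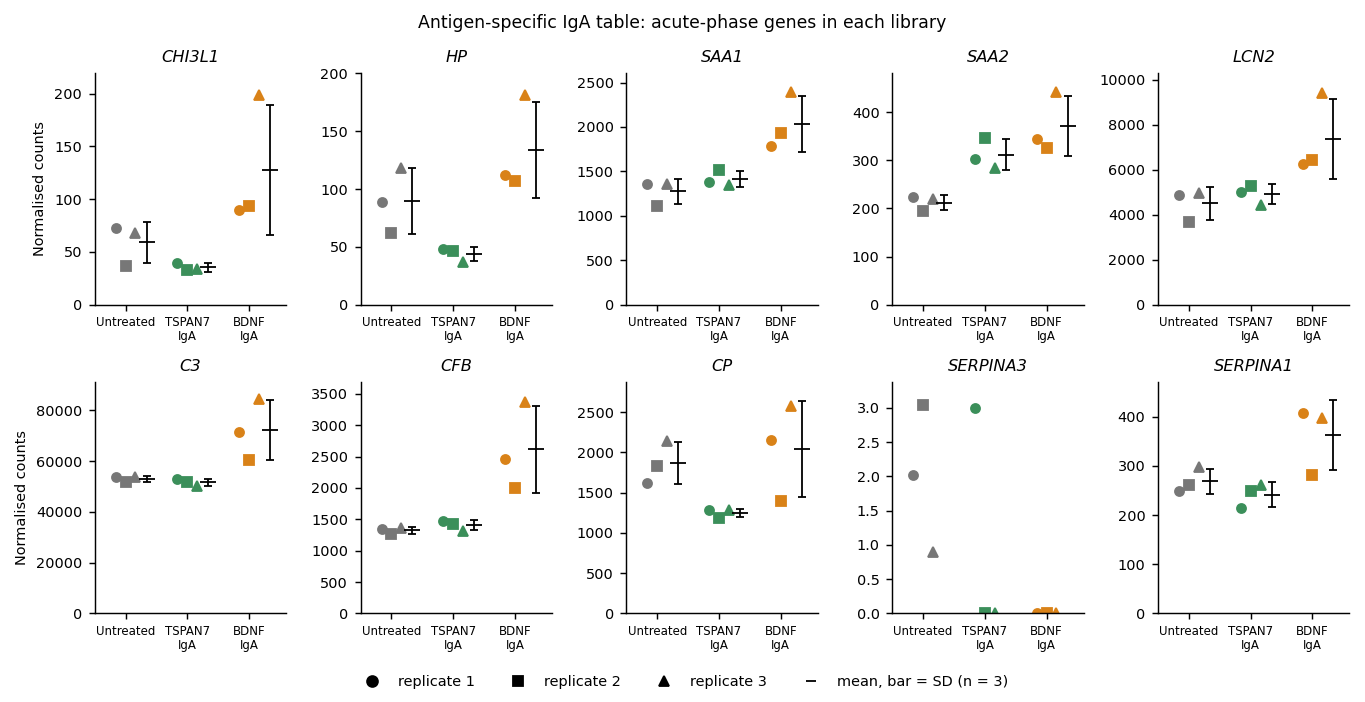
Normalised counts (counts brought to 1 common library size within the table, vertical axis from 0) of the 10 genes in the 9 libraries of the antigen-specific series, by group, with a symbol for each replicate and the mean and SD (n = 3) beside them, except for SERPINA3, whose libraries held 0 to 3 counts. BDNF IgA libraries lie above the others for CHI3L1, SAA1, LCN2, C3 and CFB, with replicate 3 highest in 8 of the 9 tested genes.

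CHI3L1 had the largest difference between the antigen-specific antibodies. It encodes YKL-40, a secreted chitinase-like protein without chitinase activity that is raised in serum in inflammation and several cancers (chromosome 1, 203148059 to 203155832, minus strand, GRCh37). Its normalised counts in untreated cells were 72.9, 36.4 and 67.7 in replicates 1 to 3. With BDNF IgA they were 89.9, 93.9 and 198.6, and with TSPAN7 IgA they were 39.9, 32.7 and 33.6. All 3 BDNF IgA libraries were above all others, whereas the lowest untreated library lay within the TSPAN7 IgA range. The mean went from 59.03 ± 19.8 (SD, n = 3) in untreated cells to 127.5 ± 61.6 with BDNF IgA, a log2 fold change of 1.11 (SE 0.28, edgeR FDR 0.0153). With TSPAN7 IgA the mean was 35.39 ± 3.97, and the log2 fold change of -0.74 against untreated cells did not pass (edgeR FDR 0.179), although it did with no filter on low counts (edgeR FDR 0.0274). Between the antibodies CHI3L1 was 3.6-fold lower with TSPAN7 IgA, a log2 fold change of -1.85 (SE 0.3, edgeR FDR 0.00057). The call against untreated cells rested on single libraries, since it was lost without BDNF IgA replicate 3 (0.63, edgeR FDR 0.196) and without untreated replicate 2 (0.86, edgeR FDR 0.0944).

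In the non-specific series CHI3L1 was at 33.6, 19.99 and 6.32 normalised counts with IgA, at 32.7, 45.5 and 53.8 with IgG, and at 27.0, 52.1 and 76.5 in untreated cells. These groups overlapped, and the log2 fold changes of IgA were -1.09 against IgG (edgeR FDR 0.154) and -1.34 against untreated cells (edgeR FDR 0.0819). Without IgA replicate 1 the value against untreated cells was -1.90 and passed (edgeR FDR 0.0411), as it did with no filter on low counts (-1.35, edgeR FDR 0.0296). The same value was -0.95 without untreated replicate 3 (edgeR FDR 0.311) and -0.97 without IgA replicate 3 (edgeR FDR 0.149). Against IgG it was -0.72 without IgA replicate 3 (edgeR FDR 0.291) and -1.66 without IgA replicate 1 (edgeR FDR 0.0698).

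HP, which encodes haptoglobin, the plasma protein that binds free haemoglobin, fell with TSPAN7 IgA (chromosome 16, 72088404 to 72094954, plus strand). Its normalised counts were 89.1, 61.7 and 118.3 in untreated cells, 112.2, 106.9 and 181.5 with BDNF IgA, and 47.9, 46.4 and 36.8 with TSPAN7 IgA. The 3 TSPAN7 IgA libraries were the lowest of the 9, while untreated and BDNF IgA libraries overlapped. The mean with TSPAN7 IgA was 43.71 ± 6.02, against 89.71 ± 28.3 in untreated cells, a log2 fold change of -1.04 (SE 0.26, edgeR FDR 0.0131). With BDNF IgA the mean was 133.5 ± 41.7, and the log2 fold change of 0.57 against untreated cells did not pass (edgeR FDR 0.128). Between the antibodies HP was 3.05-fold lower with TSPAN7 IgA, a log2 fold change of -1.61 (SE 0.25, edgeR FDR 0.000366). The fall against untreated cells was lost without TSPAN7 IgA replicate 3 (edgeR FDR 0.0673) or untreated replicate 3 (-0.78, edgeR FDR 0.106). The increase with BDNF IgA passed without its replicate 2 (0.70, edgeR FDR 0.0313) and with no filter on low counts (edgeR FDR 0.0267).

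In the non-specific series HP was near the limit of the libraries, with 3.36, 2.00 and 6.32 normalised counts with IgA, 9.33, 9.10 and 7.69 with IgG, and 14.5, 16.8 and 2.42 in untreated cells. The IgA libraries were below all IgG libraries, but the log2 fold change of -1.21 had an SE of 0.85 and did not pass (edgeR FDR 0.324). Of the 75-base windows in the main HP transcript, 24.2% also occur in its relative HPR, and on the opposite strand HP overlaps TXNL4B. Reads of such stretches may have been lost or shared, and the strand used in counting is not stated.

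SAA1 and SAA2 encode the acute-phase serum amyloid A proteins, small lipid-binding apolipoproteins that bind high-density lipoprotein (chromosome 11; SAA1 at 18287807 to 18291524 on the plus strand, SAA2 at 18260770 to 18270215 on the minus strand). Both rose with BDNF IgA, and SAA1 rose with non-specific IgA. In the antigen-specific series SAA1 was at 1362, 1114 and 1354 normalised counts in untreated cells, at 1780, 1927 and 2393 with BDNF IgA, and at 1379, 1520 and 1346 with TSPAN7 IgA. The BDNF IgA libraries were above all others, and the TSPAN7 IgA and untreated libraries overlapped. The log2 fold change of SAA1 with BDNF IgA was 0.67 (SE 0.089, edgeR FDR 4.38e-05), from 1277 ± 141 to 2033 ± 320. With TSPAN7 IgA it was 0.15 (95% interval -0.042 to 0.337, edgeR FDR 0.368), and against BDNF IgA it was -0.52 (SE 0.089, edgeR FDR 0.000859).

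SAA2 was at 222.9, 194.2 and 218.5 normalised counts in untreated cells, at 344.6, 325.6 and 441.0 with BDNF IgA, and at 302.6, 346.8 and 283.6 with TSPAN7 IgA. Every library of both antibodies was above every untreated library, and the antibodies overlapped. SAA2 rose, with a log2 fold change of 0.81 (SE 0.12, edgeR FDR 0.000201) with BDNF IgA and of 0.55 (SE 0.12, edgeR FDR 0.00646) with TSPAN7 IgA. It was the only member called higher with both antibodies. The difference between them was -0.25 (edgeR FDR 0.202). SAA2 overlaps the gene SAA2-SAA4 on the same strand, so reads of the overlap may have been lost or shared. SAA1 and SAA2 share sequence: 26.4% of the 75-base windows of the main SAA1 transcript also occur in some transcript of SAA2. Aligned bases of their main transcripts were 95.4% identical. With the counts of both summed, the TSPAN7 IgA increase over untreated cells was 0.21 and did not pass (edgeR FDR 0.156), and the difference from BDNF IgA was -0.48 and passed (edgeR FDR 0.00167). The sum mostly follows SAA1, with a mean of 1277 normalised counts in untreated cells against 211.9 for SAA2. It therefore cannot show how reads were split between the copies, which remains uncertain. The BDNF IgA increase passed both ways. The SAA2 call with TSPAN7 IgA was also lost without TSPAN7 IgA replicate 2 (edgeR FDR 0.057).

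With non-specific IgA, SAA1 was at 192.8, 104.9 and 173.8 normalised counts, against 62.5, 91.0 and 64.8 with IgG and 79.9, 84.9 and 74.9 in untreated cells. All 3 IgA libraries were above all 6 others. SAA1 rose, with a log2 fold change of 1.10 against IgG (SE 0.28, edgeR FDR 0.012) and of 0.97 against untreated cells (SE 0.27, edgeR FDR 0.0208). The call against IgG was lost without IgG replicate 1 or 3 (edgeR FDR 0.0502 and 0.0518). The call against untreated cells was lost without IgA replicate 1 (0.79, edgeR FDR 0.076) and without untreated replicate 1, 2 or 3 (edgeR FDR 0.0661, 0.0532 and 0.077), and with scaling by library size alone (0.75, edgeR FDR 0.0587). SAA2 was at 79.6, 32.0 and 11.1 with IgA, at 18.7, 16.4 and 14.3 with IgG, and at 9.34, 18.5 and 17.7 in untreated cells. IgA replicate 1 was the highest and replicate 3, the library with many mitochondrial counts, was below most others. The log2 fold changes of SAA2, 1.32 against IgG and 1.43 against untreated cells, did not pass (edgeR FDR 0.138 and 0.11), and both passed without IgA replicate 3 (1.75 and 1.85, edgeR FDR 0.0229 and 0.0167). Without IgA replicate 1 they were 0.42 and 0.52 (edgeR FDR 0.666 and 0.575).

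LCN2 encodes lipocalin 2, which binds bacterial siderophores and so withholds iron from microbes (chromosome 9, 130911350 to 130915732, plus strand). It rose with BDNF IgA, and it rose with non-specific IgA over IgG. In the antigen-specific series it was at 4890, 3677 and 4952 normalised counts in untreated cells, at 6260, 6445 and 9423 with BDNF IgA, and at 5018, 5284 and 4412 with TSPAN7 IgA. The lowest BDNF IgA library was above the highest of the other 6. The log2 fold change with BDNF IgA was 0.71 (SE 0.12, edgeR FDR 0.000537), that with TSPAN7 IgA was 0.12 (95% interval -0.123 to 0.367, edgeR FDR 0.602), and that between the antibodies was -0.59 (SE 0.12, edgeR FDR 0.00336). For LCN2 the non-specific series gave 1169, 810.4 and 1052 normalised counts with IgA, 560.0, 739.3 and 702.7 with IgG, and 834.8, 710.4 and 702.5 in untreated cells. The IgA libraries were above all IgG libraries, a log2 fold change of 0.60 (SE 0.16, edgeR FDR 0.0149), and 1 of them overlapped the untreated libraries (0.43, edgeR FDR 0.0585). The call against IgG was lost without IgA replicate 1 (0.47, edgeR FDR 0.0606) or IgG replicate 1 (0.48, edgeR FDR 0.0688), and with scaling by library size alone (0.35, edgeR FDR 0.125).

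The complement genes C3 and CFB rose with BDNF IgA and were close to the untreated level with TSPAN7 IgA. C3 encodes the central component of complement (chromosome 19, 6677715 to 6730573, minus strand) and CFB encodes factor B, which forms the alternative pathway convertase with C3b (chromosome 6, 31913427 to 31919863, plus strand). C3 was at 53750, 51631 and 53598 normalised counts in untreated cells, at 71613, 60527 and 84267 with BDNF IgA, and at 52947, 51922 and 50023 with TSPAN7 IgA. CFB was at 1340, 1267 and 1364 in untreated cells, at 2466, 2001 and 3376 with BDNF IgA, and at 1477, 1423 and 1322 with TSPAN7 IgA. For both genes the 3 BDNF IgA libraries stood above the other 6, which overlapped each other. C3 rose, with a log2 fold change of 0.44 (SE 0.073, edgeR FDR 0.000515) and CFB by 0.98 (SE 0.11, edgeR FDR 6.86e-06), from 1324 ± 50.5 to 2614 ± 699. With TSPAN7 IgA the log2 fold change of C3 was -0.04 (95% interval -0.189 to 0.114, edgeR FDR 0.825) and that of CFB was 0.09 (95% interval -0.155 to 0.331, edgeR FDR 0.723). Between the antibodies C3 was -0.48 (edgeR FDR 0.000318) and CFB -0.89 (edgeR FDR 6.42e-05).

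Neither complement gene passed with IgA or IgG of the non-specific series, in any comparison. C3 was at 39652, 32636 and 34844 normalised counts with IgA, at 27558, 32188 and 35686 with IgG, and at 32491, 31750 and 37311 in untreated cells, and these ranges overlapped. CFB was at 488.9, 292.8 and 1017 with IgA, at 303.3, 422.5 and 626.9 with IgG, and at 496.3, 391.0 and 518.8 in untreated cells. The IgA libraries spread the most for CFB, with the highest value in replicate 3 and the lowest in replicate 2. CFB overlaps C2, and C3 overlaps GPR108, each on the same strand, so reads of the overlaps may have been lost or shared.

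CP, which encodes ceruloplasmin, the copper-carrying ferroxidase of plasma, fell with TSPAN7 IgA and with non-specific IgA (chromosome 3, 148880197 to 148939616, minus strand). In the antigen-specific series it was at 1619, 1829 and 2137 normalised counts in untreated cells, at 2158, 1393 and 2570 with BDNF IgA, and at 1279, 1184 and 1279 with TSPAN7 IgA. The TSPAN7 IgA libraries were below all 6 others, whereas BDNF IgA and untreated libraries overlapped. CP fell by 0.58 on the log2 scale with TSPAN7 IgA against untreated cells (SE 0.14, edgeR FDR 0.0095) and by 0.71 against BDNF IgA (SE 0.14, edgeR FDR 0.0026), and its log2 fold change with BDNF IgA was 0.13 (edgeR FDR 0.623). That value was 0.34 and passed without BDNF IgA replicate 2 (edgeR FDR 0.00291), and it was -0.07 without replicate 3. The fall with TSPAN7 IgA against untreated cells did not pass without TSPAN7 IgA replicate 2 (edgeR FDR 0.0637), without untreated replicate 3 (edgeR FDR 0.0746) or with DESeq2 (adjusted p 0.0695).

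In the non-specific series CP was at 1676, 904.4 and 1207 normalised counts with IgA, at 1451, 2203 and 3316 with IgG, and at 2521, 2171 and 2575 in untreated cells. The IgA libraries were below all untreated libraries and overlapped 1 IgG library. CP fell by 0.94 on the log2 scale against untreated cells (SE 0.26, edgeR FDR 0.0183) and by 0.88 against IgG (SE 0.26, edgeR FDR 0.0256). The call against IgG did not hold without IgG replicate 3 (-0.54, edgeR FDR 0.138), IgG replicate 2 (edgeR FDR 0.0557) or IgA replicate 2 (-0.69, edgeR FDR 0.0759), with only the 6 libraries compared (edgeR FDR 0.0638), or with DESeq2 (adjusted p 0.0533). The call against untreated cells did not hold without untreated replicate 1 or 3 (edgeR FDR 0.0573 and 0.0652) or IgA replicate 2 (edgeR FDR 0.0564). CP overlaps HPS3 on the opposite strand.

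The serpins SERPINA1 and SERPINA3 encode the protease inhibitors alpha-1-antitrypsin and alpha-1-antichymotrypsin (both on chromosome 14; SERPINA1 at 94843084 to 94857030 on the minus strand, SERPINA3 at 95078721 to 95090392 on the plus strand). SERPINA1 was at 248.2, 261.0 and 297.1 normalised counts in untreated cells, at 408.2, 281.7 and 398.2 with BDNF IgA, and at 213.7, 249.8 and 262.0 with TSPAN7 IgA. It rose with BDNF IgA, where the log2 fold change was 0.43 (SE 0.13, edgeR FDR 0.0422), although its replicate 2 lay within the untreated range, and this call was lost in 7 of 16 alternatives, by leaving out BDNF IgA replicate 1 or 3 (edgeR FDR 0.204 and 0.183), untreated replicate 1 or 2 (0.158 and 0.134), TSPAN7 IgA replicate 1 or 2 (0.0503 and 0.0558), or the TSPAN7 IgA group (0.0671). Between the antibodies SERPINA1 was -0.59 on the log2 scale (SE 0.13, edgeR FDR 0.00781), a call lost without BDNF IgA replicate 1 or 3 (edgeR FDR 0.0628 and 0.0512). SERPINA1 in the non-specific series was at 385.1 to 527.0 normalised counts over the 9 libraries, with log2 fold changes of 0.05 against IgG and 0.10 against untreated cells for IgA. SERPINA3 was at 5.61, 0 and 15.8 normalised counts with IgA, at 0, 5.46 and 3.29 with IgG, and at 0 in each untreated library of that series. With DESeq2 and with no filter on low counts, it was called higher with IgA than in untreated cells, on 0 to 10 counts. In the antigen-specific series it was at 0 in each BDNF IgA library and at most 3.03 elsewhere, levels at which no difference was detectable.

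**Figure D2:**
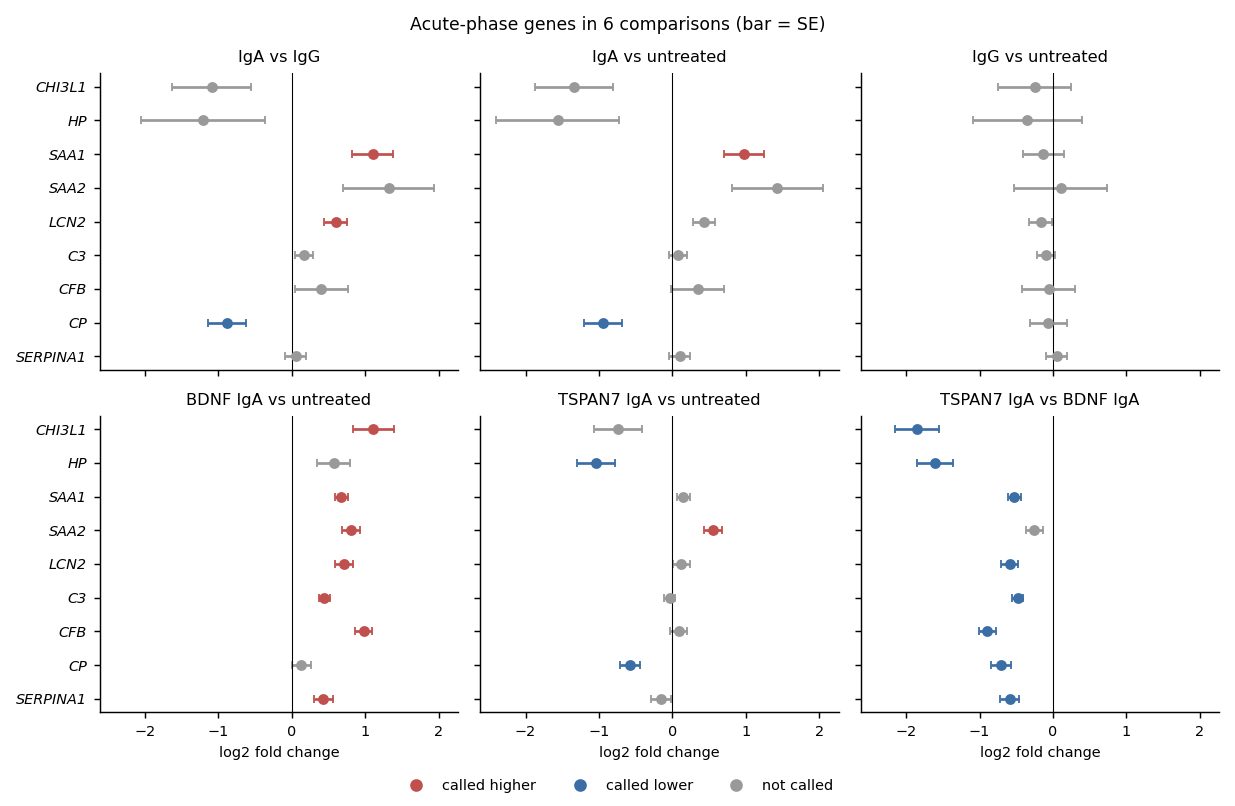
Log2 fold change (horizontal axis, first group minus second; points, with the SE as bars) of the 9 tested genes in the 6 comparisons, coloured by call at an edgeR FDR under 0.05. BDNF IgA against untreated cells has all 9 points above 0, from 0.13 to 1.11, and TSPAN7 IgA against BDNF IgA has all 9 below 0, from -1.85 to -0.25.

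Across the non-specific series the members were divided. With IgA against IgG, 2 of 9 were higher (SAA1 and LCN2) and 1 lower (CP), where 12.6% of the 18012 genes tested were called higher and 11.6% lower. Against untreated cells 1 was higher (SAA1) and 1 lower (CP), where 12.9% and 12.1% of genes were. The shares of members called were thus near those of all genes, and the median log2 fold changes of the members were 0.17 and 0.10, beside -0.014 and -0.012 over all genes. IgG against untreated cells gave 0 of 9 members by edgeR (0 also at an unadjusted p under 0.05, and 0 by DESeq2), where 0% of genes were called and 89 genes had an unadjusted p under 0.05. Members' log2 fold changes there ranged from -0.35 to 0.11. Scaling by library size alone moved the median over all genes to -0.249 for IgA against IgG and to -0.218 against untreated cells, and C3 and SERPINA1 then had the opposite sign, without passing either way. The high mitochondrial share was in IgA replicate 3 alone, with 7.4% and 5.75% in replicates 1 and 2. Without that library 4 members were called against IgG and 3 against untreated cells, and the log2 fold changes of CFB were -0.21 and -0.27 (edgeR FDR 0.611 and 0.504).

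**Figure D3:**
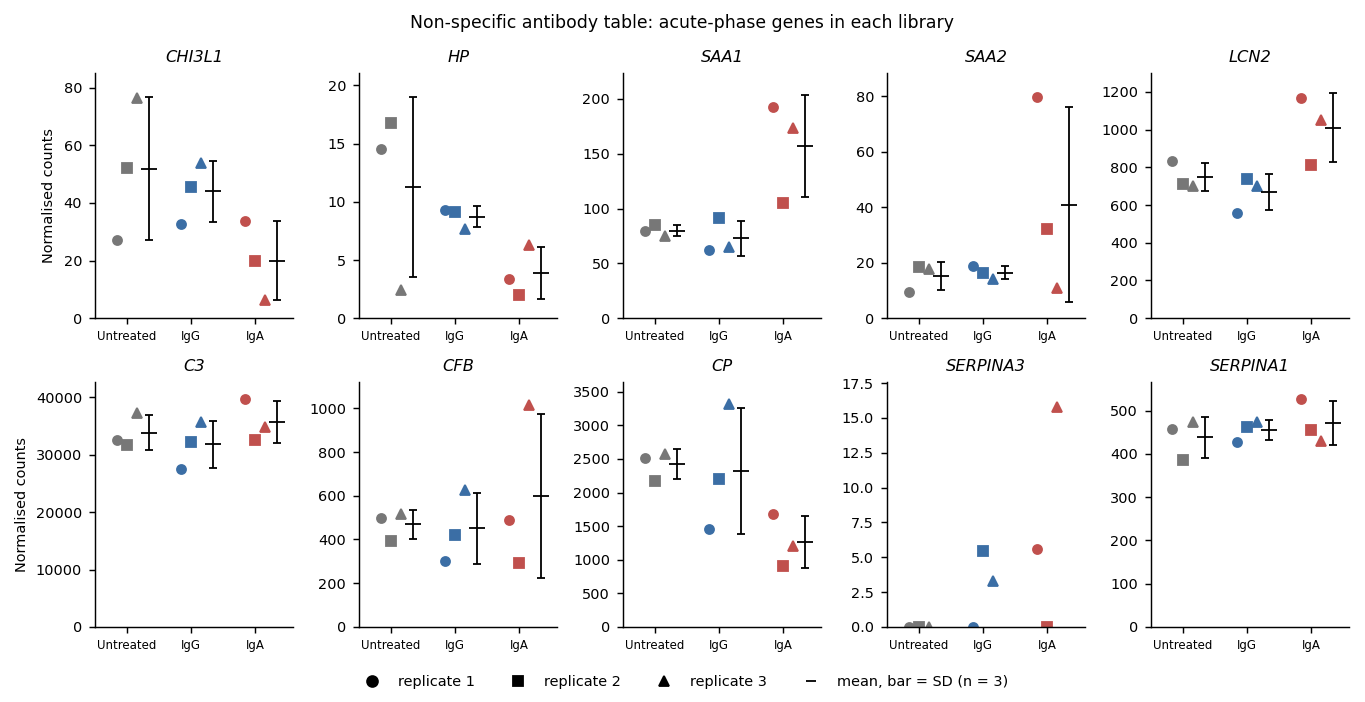
Normalised counts (vertical axis from 0) of the 10 genes in the 9 libraries of the non-specific series, by group, with a symbol for each replicate and the mean and SD (n = 3) beside them, except for SERPINA3. SAA1 is the only gene whose 3 IgA libraries lie above all 6 others, and for CFB and SAA2 the IgA libraries spread over the range of the other groups.

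Within BDNF IgA the members varied together from library to library. Replicate 3 was the highest of its group for 8 of 9 members, and replicate 2 was the lowest for 6 of 9. Among the 14083 genes with a mean of at least 50 normalised counts in this series, the shares were 35.8% and 39.5%. Among the untreated libraries of the same series replicate 2 was the lowest for 7 of 9 members, against 32.3% of those genes. In the non-specific series IgA replicate 1 was the highest of its group for 7 of 9 members, and IgG replicate 1 was the lowest for 7 of 9. Among the 13515 genes that reached the same mean there, the shares were 31.2% and 32.7%. CHI3L1, HP and SAA2 did not reach it in that series and are not among those genes. The size of the BDNF IgA response depended on single libraries. Without BDNF IgA replicate 3, 5 members were called higher than in untreated cells and 7 were lower under TSPAN7 IgA than under BDNF IgA. Without BDNF IgA replicate 2 the counts were 9 and 9. SAA1, SAA2, LCN2, C3 and CFB passed against untreated cells under each of the 16 alternatives tried, and CHI3L1, HP, SAA1, LCN2, C3, CFB and CP passed between the antibodies under each of them. Every member had a smaller value between the antibodies without BDNF IgA replicate 3, for example -1.37 for CHI3L1 and -0.37 for LCN2 (edgeR FDR 0.00769 and 0.0413).

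**Figure D4:**
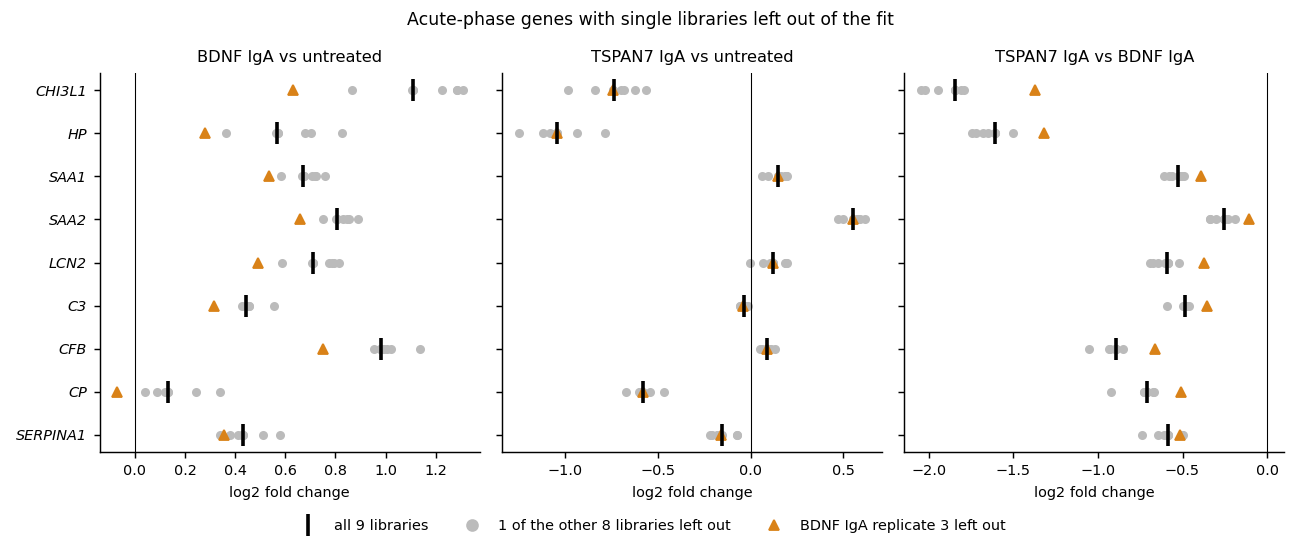
Log2 fold change (horizontal axis) of the 9 tested genes in the 3 comparisons of the antigen-specific series, with all 9 libraries (black bars), with BDNF IgA replicate 3 left out (orange triangles) and with 1 of the other 8 libraries left out (grey points). Leaving out BDNF IgA replicate 3 gave the smallest values between the antibodies for all members but SERPINA1, and turned CP against untreated cells to -0.07.

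Groups that do not overlap gave a similar count. With BDNF IgA, 6 of 9 members had all 3 libraries above all 3 untreated ones, where 12.8% of all genes did. With TSPAN7 IgA against BDNF IgA, 8 of 9 had all 3 below, where 12.1% of genes did. With TSPAN7 IgA against untreated cells 1 was above and 2 below, where 14.4% and 14% of genes were. In the non-specific series IgA against IgG had 2 above (SAA1 and LCN2) and 1 below (HP), where 19.7% and 20.6% of genes were, and IgA against untreated cells had 1 above (SAA1) and 1 below (CP), where 19.8% and 20.1% were.

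Levels of different genes were compared per kilobase of merged exons. C3 was the highest member in every group, at 4577 ± 102 normalised counts per kilobase in untreated cells of the antigen-specific series, followed by LCN2 at 2823 ± 451 and SAA1 at 1202 ± 133. CP and CFB came next at 263.2 ± 36.9 and 249.3 ± 9.51, ranges that overlapped, and then SAA2 at 94.5 ± 6.89 and SERPINA1 at 54.8 ± 5.17. CHI3L1 and HP were low, at 17.6 ± 5.87 and 16.3 ± 5.15, and they also overlapped. With BDNF IgA the ranges of C3 and LCN2 overlapped too, at 6231 ± 1030 and 4621 ± 1110 per kilobase, and CFB stood above CP, at 492.2 ± 132 and 288.5 ± 84.4. With TSPAN7 IgA no neighbours in the order overlapped. With the length of the main transcript in place of merged exons, CFB was above CP in untreated cells, HP was above CHI3L1 in the 3 groups, and SAA2 was above CP with either antibody. In untreated cells of the non-specific series the order was C3, LCN2 and CP, at 2924 ± 261, 469.4 ± 46.5 and 342.5 ± 31.0 per kilobase, then SERPINA1, CFB and SAA1 with neighbouring ranges that overlapped, and CHI3L1, SAA2 and HP at 15.4 or less.

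The genes that feed into or surround this response were taken from 9 lists of 90 genes in all, of which 58 were tested in each table. The 6 tested cytokine ligands, IL6, IL1A, IL1B, LIF, IL11 and TNF, were all higher with non-specific IgA than in untreated cells, and 4 were higher with BDNF IgA and 5 with TSPAN7 IgA. IL6, the main inducer of the liver response, rose from 36.79 ± 8.55 normalised counts with IgG to 853.9 ± 189 with IgA (log2 fold change 4.53, edgeR FDR 1.49e-07). IL6 also rose with TSPAN7 IgA (1.35, edgeR FDR 0.000298), and it was 0.41 with BDNF IgA (edgeR FDR 0.31). Between the antibodies it was 0.94 higher on the log2 scale with TSPAN7 IgA (edgeR FDR 0.00746), where CHI3L1, HP, SAA1, LCN2, C3, CFB, CP and SERPINA1 were lower. IL1A rose with both, by 1.39 with BDNF IgA and 1.48 with TSPAN7 IgA (edgeR FDR 3.91e-05 and 1.44e-05).

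Of the 10 tested transcription factors, 7 were higher with non-specific IgA than in untreated cells and 0 lower, 3 were higher and 1 lower with BDNF IgA, and 2 were higher with TSPAN7 IgA. NFKBIZ, an inducible partner of NF-kB needed for LCN2 induction in other cells, was called in each, with log2 fold changes of 1.27, 0.37 and 0.35. CEBPD, a C/EBP factor of the acute-phase response, rose with IgA (1.87) and fell by 0.22 on the log2 scale with BDNF IgA (edgeR FDR 0.0303). Of the 6 inhibitors, SOCS3, which restrains STAT3 signalling, fell in all 3 comparisons with untreated cells, by 1.22 with IgA, 0.22 with BDNF IgA and 0.54 with TSPAN7 IgA on the log2 scale. NFKBIA and TNFAIP3, which restrain NF-kB, rose in all 3. TNFAIP3 rose by 4.10 with IgA, 0.49 with BDNF IgA and 0.77 with TSPAN7 IgA. Of the 10 receptors and kinases 5 were higher and 3 lower with IgA, and 0 were called with BDNF IgA or TSPAN7 IgA by edgeR.

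Among the complement genes C2, C5, CFD, CFI, CFP, CD46, CD55, CD59, C1R and C1S, the protease genes C1R and C1S rose with BDNF IgA against untreated cells (0.61 and 0.55, edgeR FDR 0.00201 and 0.00234), and neither was called with TSPAN7 IgA. The other 8 of these genes were not called with BDNF IgA, where 4.49% of all genes were higher. CFI was lower under TSPAN7 IgA than under BDNF IgA (-0.86, edgeR FDR 0.0172). CD55 and CD59, which protect cells from complement, rose with non-specific IgA against untreated cells (1.60 and 0.53, edgeR FDR 1.53e-05 and 0.00605). Among 8 tested partners and relatives of the members, S100A8 and S100A9, the subunits of calprotectin, and the elastase inhibitor gene PI3 rose with BDNF IgA (0.76, 0.53 and 0.49), and all 3 were lower under TSPAN7 IgA than under BDNF IgA (-0.67, -0.74 and -0.25). PI3 also rose with TSPAN7 IgA against untreated cells (0.23, edgeR FDR 0.0177). LTF, which encodes lactoferrin, was lower with TSPAN7 IgA than in untreated cells (-0.76, edgeR FDR 0.046). Of 17 other positive acute-phase genes 2 had enough counts for a test in each table, PTX3 in both, with ORM2 in the non-specific and SAA4 in the antigen-specific series. The latter pair was not called in any comparison. PTX3, a pentraxin made outside the liver, rose with IgA against IgG (5.14) and with TSPAN7 IgA against untreated cells (0.78, edgeR FDR 3.17e-05). It was not called with BDNF IgA (0.27, edgeR FDR 0.123), and between the antibodies it was higher under TSPAN7 IgA (0.51, edgeR FDR 0.00334). Among the other serpins, SERPINE2 rose against untreated cells with IgA (1.77), with BDNF IgA (0.21) and with TSPAN7 IgA (0.18). Only 1 or 2 of 6 negative acute-phase genes were tested in a table, and none was called in any comparison with untreated cells. RBP4, which encodes the plasma carrier of retinol, was higher with IgA than with IgG (1.05, edgeR FDR 0.0289), while its value against untreated cells was 0.67 (edgeR FDR 0.135).

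**Figure D5:**
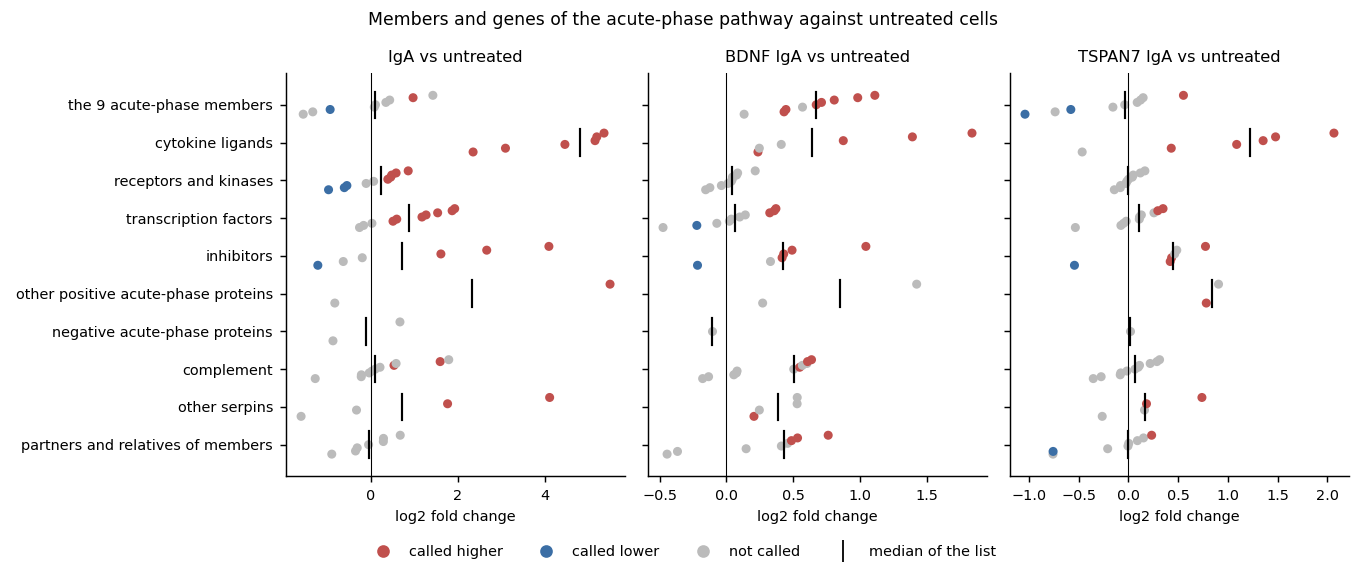
Log2 fold change against untreated cells (horizontal axis, a separate scale in each panel) of the 9 tested members and of the tested genes of 9 lists, coloured by call at an edgeR FDR under 0.05, with the median of each list as a black bar. Median values of the cytokine ligands are 4.82 with IgA, 0.64 with BDNF IgA and 1.22 with TSPAN7 IgA, and those of the members are 0.10, 0.67 and -0.04.

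Genes whose log2 levels ran most like CHI3L1 over the 9 libraries of each table, ranked by the smaller of the 2 Pearson correlations among 13347 genes, were FAM45A (r = 0.925 in the non-specific and 0.973 in the antigen-specific series), MREG (0.932 and 0.918) and HID1 (0.934 and 0.916). For HP they were CCDC146 (0.829 and 0.8), GOLT1A (0.755 and 0.871) and ARHGEF6 (0.737 and 0.746). These are descriptions over libraries that share their treatment and their scaling, and HP rests on few counts in the non-specific series. In RNA from whole cultures, fewer cells making a transcript and less RNA per cell cannot be told apart.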

How the data were processed

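Paired-end reads were trimmed by the authors (cutadapt 1.8.1), mapped by STAR on GRCh37, and counted per gene where they mapped to 1 place. The counter is given as featureCounts in the methods and as HTSeq 0.6.1 in the submitters' processing notes, and the strand setting is not given in the sources used here. The deposited values are raw counts per gene in 2 tables. In the second, 2055 of 57820 rows were exact copies and were removed (1.99% to 2.46% of the counts of a library). Libraries were grouped by their titles. The reads carry no molecular identifiers. Errors came from the edgeR fit, which takes in the size of the counts and the spread between replicates.

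Each table was fitted once with all 9 libraries by the two-sided quasi-likelihood test of edgeR 4.0.16, after filterByExpr and TMM scaling, in R 4.3.3, which lends each comparison the spread of all 3 groups. Normalised counts are counts divided by the effective library size and multiplied by its mean in the table. SE was taken as the size of the log2 fold change over the root of F, and intervals (95%) used the degrees of freedom of the fit. P-values were adjusted by Benjamini-Hochberg over all genes tested, with calls at an adjusted p (FDR) under 0.05. Scripts were tested on simulated data in which 200 genes were changed by 1.5 on the log2 scale. For IgA against untreated cells 93% of them were recovered, and 8.82% of the calls were false at the threshold of 0.05. For TSPAN7 IgA against untreated cells these shares were 100% and 4.76%. The members, lists, markers and motifs were chosen with earlier results of these data known, so nothing here is independent support for the list. Every member is named. Pathway genes were named where called with at least 50 normalised counts in a group, with IL6, IL1A and other list genes added after their values were seen. Exon lengths and positions came from GENCODE v44 lifted to GRCh37. Alternatives were DESeq2 1.42.0, other scalings, no filter on low counts, only the 6 libraries compared, a replicate block, SAA1 and SAA2 summed, and leaving out each library. Some genes of the lists are not reported here.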

Additional observations from a re-analysis of the deposited data

How the results depend on the processing

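Counts of members called were within 1.5 times of those reported under the alternatives tried, except for IgA against untreated cells, where the count of 2 became 1 with scaling by library size only and 5 with no filter on low counts, and except when single libraries were left out. Without single libraries the counts ranged from 1 to 4 for IgA against IgG, from 0 to 3 for IgA against untreated cells and from 1 to 3 for TSPAN7 IgA against untreated cells. The cause was not tested. Changes of sign, in values that passed neither way, came with library size only for C3 (-0.069) and SERPINA1 (-0.18) in IgA against IgG and for C3 (-0.13) and SERPINA1 (-0.10) in IgA against untreated cells, and with SAA1 and SAA2 summed for SAA2 in IgG against untreated cells (-0.091). Leaving out single libraries turned the sign of SERPINA1 (-0.040 to 0.11) and CFB (-0.21 to 0.73) in IgA against IgG, and of C3 (-0.0072 to 0.15) and CFB (-0.27 to 0.67) in IgA against untreated cells. In IgG against untreated cells it did so for SAA2 (-0.14 to 0.27), SERPINA1 (-0.036 to 0.11), CHI3L1 (-0.55 to 0.14), CFB (-0.37 to 0.16), C3 (-0.18 to 0.0043) and CP (-0.41 to 0.19), and in the antigen-specific series for CP with BDNF IgA (-0.072 to 0.34) and LCN2 with TSPAN7 IgA (-0.0032 to 0.20) against untreated cells. Of the other values of single members, 791 kept their direction and side of the threshold, 36 lost the threshold and 14 gained it. HP could not be fitted in the non-specific series where the filter on low counts removed it. Samples with the same replicate number deviated together by more than a correlation of 0.1 in 1 of 9 pairs of the non-specific series. In the antigen-specific series 0 of 9 pairs did so. The highest correlations of such pairs were 0.247 and 0.0887. This check cannot exclude that the numbers pair the samples. With the replicate block the counts of members called were 3, 2, 0, 7, 3 and 8 in the order of the comparisons in the report on IgA against IgG, IgA and IgG against untreated cells, BDNF IgA and TSPAN7 IgA against untreated cells, and TSPAN7 IgA against BDNF IgA, as without it. Levels of HP in the non-specific series and of SERPINA3 in both were low. HP passed in no comparison of that series under the alternatives tried. SERPINA3 was among the members called higher with IgA than in untreated cells with DESeq2 and with no filter on low counts. Those calls rest on 0 to 10 counts in the IgA libraries against 0 in the untreated ones.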
